A study of Caenorhabditis elegans with 4 samples.

Results

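CHD-3 sites on chromosome II of Caenorhabditis elegans were the 1630 peaks that lay on this chromosome in the series-wide list, a deposited list tied to no particular library, out of 10520 peaks in all and 10512 on the 6 nuclear chromosomes. They were chosen by chromosome alone. Beside them stand the 756 peaks on II in the list of ChIP replicate 1 and the 290 in that of ChIP replicate 2. Chromatin immunoprecipitation followed by sequencing was done with the rabbit polyclonal antibody SDQ3907 against CHD-3, in 2 ChIP libraries and 2 input libraries. All 4 libraries came from hermaphrodites of strain fem-2(b245), genotype fem-2(b245)III, kept at 20 °C and labelled as young adults with a germline, although the growth protocol describes gravid adults. FEM-2 is a protein phosphatase needed for male development, and all libraries carried this allele, so no library from wild-type animals or from animals without CHD-3 stands beside them. Whole worms were ground before fixation, so sites in germline and somatic nuclei cannot be told apart. Coordinates are in WS220, and no gene annotation of that build was used, so sites are given by position and not by gene.

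CHD-3 is an ATP-dependent chromatin remodeller of the Mi-2 family, which slides nucleosomes and works with histone deacetylases in NuRD-type complexes. Its close relative in the worm is LET-418, with which it shares part of its functions in development. Chromosome II is an autosome, and worm autosomes have a gene-rich centre with little recombination between arms that hold more repeats, more histone H3 lysine 9 methylation and most crossovers. Worm chromosomes have no localised centromere, so arm here means only an outer stretch of the chromosome. It was taken as the outer 25% of the length on each side, which gave arms of 3.82 Mb and a centre of 7.64 Mb.

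Chromosome II carried CHD-3 peaks at nearly the same density as the rest of the nuclear genome. Replicate 1 had 49.5 peaks per Mb on II and 47.8 on the other 5 nuclear chromosomes, a ratio of 1.03. Replicate 2 had 19.0 and 18.8 peaks per Mb, a ratio of 1.01, and the series-wide list 106.7 and 104.5, a ratio of 1.02. In density II was the 4th of the 6 chromosomes in each list. Peaks of replicate 1 covered 12.4% of II, those of replicate 2 3.96% and series-wide peaks 5.57%, against 11.8%, 3.98% and 5.64% of the other 5. The mean density on II was 34.2 ± 21.6 peaks per Mb (SD, n = 2), so the libraries differed from each other far more than II differed from the other chromosomes within either list. Only peak lists were used, so the depth of each library is unknown, and the smaller list of replicate 2 cannot be set against its depth. Peaks are not replicates of a condition and only 2 ChIP libraries exist, so no p-value is given. Shares are given with exact Clopper-Pearson 95% intervals; these cover counting error only and take each peak as independent.

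Along the chromosome, the 2nd and 3rd deciles of the length had the lowest densities of each list, and density rose sharply from the 3rd to the 4th, a step that lies within the centre. With the length of II divided into 10 equal deciles, replicate 1 had 28.1, 23.6 and 23.6 peaks per Mb in the first 3 deciles and 73.3 in the 4th. The same deciles held 16.4, 12.4 and 9.82 peaks per Mb in replicate 2, and the 4th held 24.9. The series-wide list fell from 89.7 to 79.2 and 60.2 over the first 3 deciles and stood at 130.2 in the 4th. The 3rd decile was the poorest of II in replicate 2 and the series-wide list, and tied with the 2nd for the poorest in replicate 1. On the other 5 chromosomes the 3rd decile was no trough, where replicate 1 had 52.7 peaks per Mb, replicate 2 had 23.3 and the series-wide list 116.5. In the 1st decile II was below them in replicate 1, with 37.8 peaks per Mb on the others, but above them in replicate 2 (15.8) and the series-wide list (77.1). At the other side, the lists parted. Replicate 1 was highest in the 6th decile, at 81.2 peaks per Mb, and had 48.4 in the last. Replicate 2 had 15.1 in the 6th decile and was highest in the last, at 29.5. The series-wide list was highest in the 6th decile, at 142.0, and had 119.8 in the last.

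**Figure D1:**
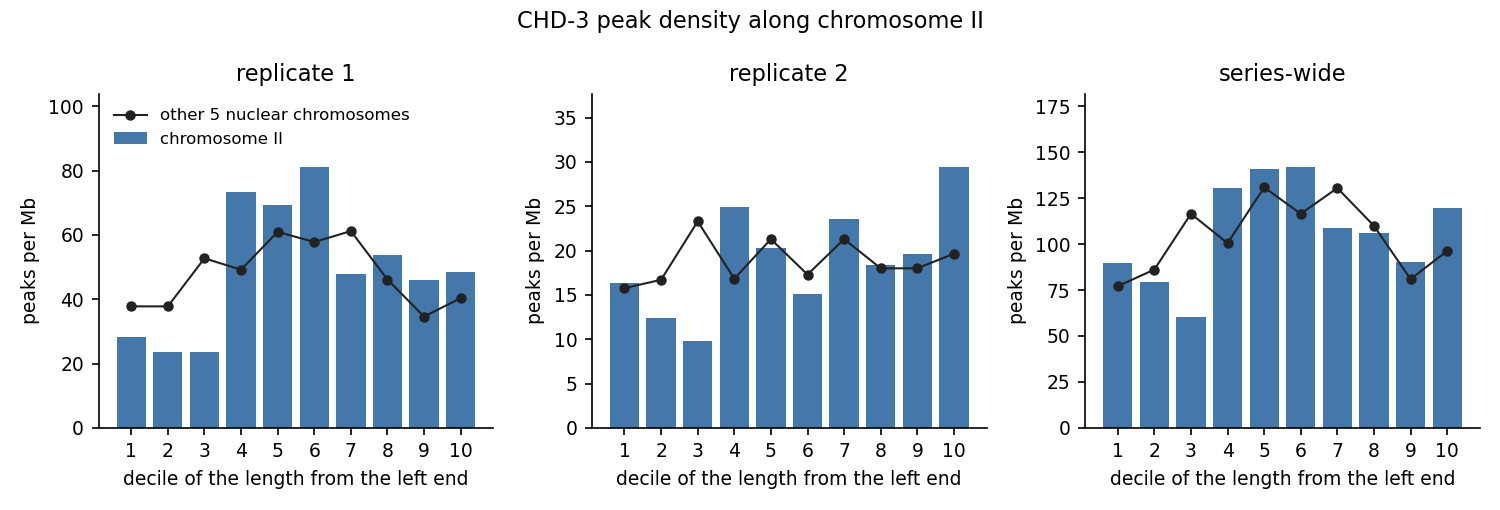
Peaks per Mb (y axis) in each decile of the length of chromosome II counted from its left end (x axis), for the lists of replicate 1, replicate 2 and the series (bars), with the other 5 nuclear chromosomes divided the same way (black line). The first 3 deciles of II stay below the 4th in each list, and the last decile is the highest only in replicate 2, at 29.5 peaks per Mb.

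The right arm of II held more CHD-3 peaks than the left arm in each list. Replicate 1 had 98 peaks in the left arm and 188 in the right, and replicate 2 had 54 and 92. The right arm thus held 65.7% of the arm peaks in replicate 1 (95% exact interval 59.9 to 71.2%) and 63.0% in replicate 2 (54.6 to 70.8%), with a mean of 64.4 ± 1.92% (SD, n = 2). In the series-wide list the arms held 306 and 425 peaks, a right-arm share of 58.1% (54.5 to 61.7%). Each of these intervals lay above 50%. On the other 5 chromosomes together the right-arm share was 50% in replicate 1, with 52.3% in replicate 2 and 51.7% series-wide. I and X also had shares above 50% in each list, whereas IV had 43.6%, 44.3% and 41.8%. The interval of X lay above 50% in replicate 1 (50.6 to 59.9%) and the series-wide list (54.1 to 60.3%). So did that of I series-wide (51.9 to 59.5%) and that of V in replicate 2 (54.3 to 70.6%). Only II had such an interval in each list. Chromosome II had the highest right-arm share of the 6 chromosomes in each list. Its lead was small in places, since V had 62.8% in replicate 2 and X had 57.2% in the series-wide list, both inside the interval of II. V did not keep its side between the libraries, with 43.1% in replicate 1.

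**Figure D2:**
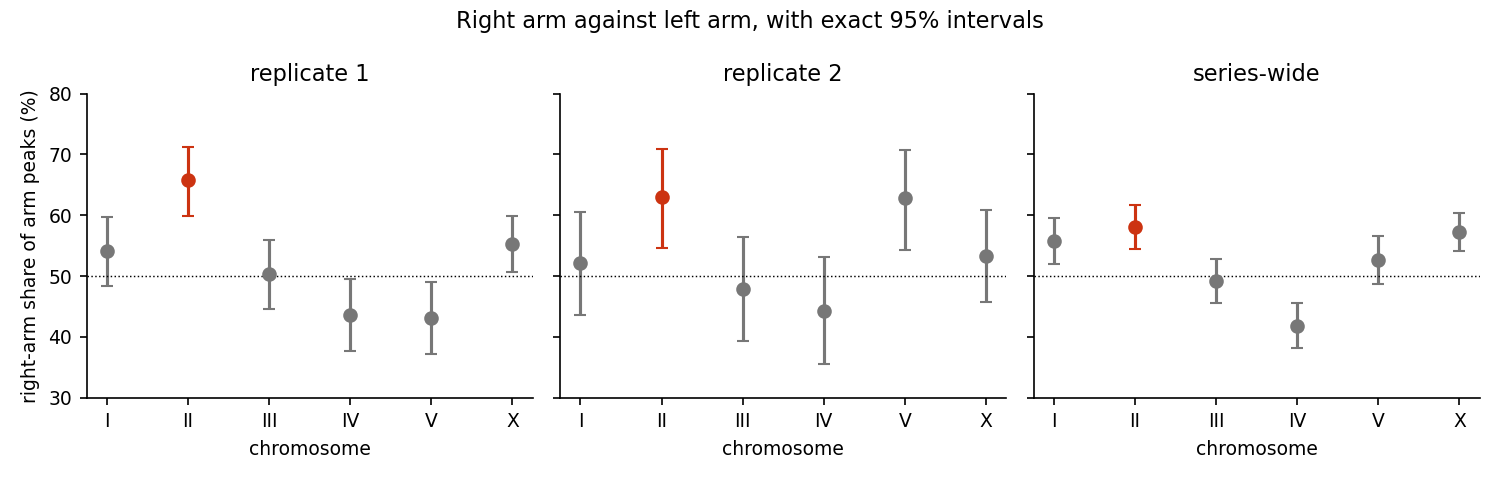
Right-arm share of all peaks in the arms (y axis, percent) on each nuclear chromosome (x axis) in the lists of replicate 1, replicate 2 and the series, with exact 95% intervals as bars and 50% as a dotted line. Chromosome II, in red, lies above 50% in each panel, at 65.7%, 63.0% and 58.1%.

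Measured by length, the left arm of II was among the least covered arms of the genome. Its peaks added up to 4.93% of the arm in replicate 1, to 2.65% in replicate 2 and to 3.22% series-wide, each the 11th highest of the 12 arms of the nuclear chromosomes. The right arm had 11.2%, 4.77% and 5.66%, which ranked 2nd, 1st and 2nd. The right arm of X was above it in replicate 1, with 14.9%, and in the series-wide list, with 6.96%. The median of the 10 arms of the other chromosomes was 8.33%, 3.60% and 4.61%, so the arms of II stood on opposite sides of it in each list.

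The weight of the centre differed between the replicates. Replicate 1 had 470 of its peaks on II in the centre and an arm share of 37.8% (34.4 to 41.4%), and replicate 2 had 144 in the centre and an arm share of 50.3% (44.4 to 56.2%). These intervals do not overlap, and the mean arm share was 44.1 ± 8.85% (SD, n = 2), the widest spread between replicates among the 6 chromosomes. The series-wide list gave 44.8% (42.4 to 47.3%). In the centre of II replicate 1 had 3.26 times as many peaks as replicate 2, against 1.81 times in the left arm and 2.04 times in the right. On the other 5 chromosomes these ratios were 2.81 in the centre, 2.34 in the left arms and 2.13 in the right arms. In replicate 2 the right arm of II was also denser than its centre, at 24.1 against 18.8 peaks per Mb, whereas in replicate 1 the centre was denser, at 61.5 against 49.2.

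Counts in windows of 1 Mb placed the richest stretches in the centre for the series-wide list and replicate 1, but less clearly for replicate 2. Over the 15 full windows of II, counts ranged from 22 to 80 (median 43) in replicate 1, from 9 to 28 (median 19) in replicate 2 and from 62 to 156 (median 107) series-wide. The 82 full windows of the other chromosomes ranged from 14 to 94, from 5 to 31 and from 39 to 187. The 3 windows with the most series-wide peaks were 7000001 to 8000000 with 156, 5000001 to 6000000 with 152 and 9000001 to 10000000 with 138. In them replicate 1 had 77, 80 and 64 peaks and replicate 2 had 17, 28 and 20, the first of these below its median. Replicate 2 had 27 peaks in a window of the right arm, 13000001 to 14000000. The window from 5000001 was the richest of II in both replicates, and peaks of replicate 1 covered 21.0% of it. The 3 windows with the fewest series-wide peaks were 1 to 1000000 with 62, 4000001 to 5000000 with 67 and 3000001 to 4000000 with 68. The first of these had 22 peaks in replicate 1 and 9 in replicate 2, the lowest of II in each. The second lay within the centre. The replicates' counts in these 15 windows had a Spearman correlation of 0.51. This is a description over neighbouring windows of the same libraries.

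The ratio of replicate 1 to replicate 2 varied between windows of 1 Mb. From 8000001 to 9000000 replicate 1 had 75 peaks and replicate 2 had 15, a ratio of 5. From 10000001 to 11000000 it had 37 against 22, a ratio of 1.68. The lowest ratio, 1.37, was in the left arm from 1000001 to 2000000, with 26 peaks against 19.

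On a finer scale, sites of II were gathered in short stretches, some of them inside the sparse left arm. Windows of 100 kb held between 0 and 31 series-wide peaks with a median of 9. A count of 31 was reached from 1300001 to 1400000, in the left arm, and from 7800001 to 7900000, and 30 from 7600001 to 7700000. The left-arm window had 9 peaks in replicate 1 and 7 in replicate 2, and 13 of its series-wide peaks overlapped both replicates. The window from 7800001 had 15 peaks in replicate 1 and 2 in replicate 2, and 4 of its series-wide peaks overlapped both. The window from 7600001 had 12 and 8, and 16 overlapped both. Equal counts in the series-wide list thus went with different support. Of the 152 full windows, 3 had no peak in any of the 3 lists, and they began at 500001, 2600001 and 10700001.

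The longest stretches without sites lay in the left arm and at 1 place in the right part of the centre. The longest stretch between neighbouring series-wide peaks on II was 157.1 kb, from 10662928 to 10820046, which held no peak of replicate 2 and 1 of replicate 1. The next, 156.7 kb from 1504490 to 1661214, held none in any list. The third, 148.0 kb from 1820148 to 1968127, held 1 peak of replicate 2. In replicate 1 the 3 longest stretches on II all lay in the left arm, the first of them 276.2 kb from 324395 to 600628. In replicate 2 they did too, the first being 464.6 kb from 1502659 to 1967221, where replicate 1 had 4 peaks and the series-wide list 7.

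Neighbouring peaks of the series-wide list often stood less than 1 kb apart. On II 714 of 1629 gaps between neighbours were under 1 kb, or 43.8%, within the range of 38.6 to 44.5% on the other chromosomes. When peaks less than 1 kb apart were joined into chains, 574 peaks on II stayed alone and 54 chains held at least 5 peaks. The peaks alone were 35.2% of those on II, against 34.3 to 42.8% on the other chromosomes, which had 38 to 61 such chains each. The chains named here were chosen after their values were seen. The longest by number joined 14 peaks from 9480684 to 9491924, a span of 11.2 kb that met 1 peak of replicate 1 and 2 of replicate 2. A chain of 10 peaks in the left arm, from 3159683 to 3168275, had no score above 8.37 and met no peak of replicate 1 and 2 of replicate 2.

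Peak width on II resembled that of the other chromosomes and depended on the list. Replicate 1 had a median of 1752.5 bp, replicate 2 one of 1694.5 bp and the series-wide list one of 319 bp, against 1688, 1680 and 338 bp on the other 5. The narrowest peak measured 943 bp in replicate 1, 1000 bp in replicate 2 and 146 bp series-wide. Peaks of 5 kb or more numbered 61, 13 and 7 on II, or 8.07%, 4.48% and 0.429% of its peaks, against 8.88%, 3.56% and 0.293% on the other 5. In replicate 1 the median width was 1559.5 bp in the left arm, 1843.5 bp in the centre and 1658.5 bp in the right arm. Of its 61 peaks of 5 kb or more on II, 47 lay in the centre, as did 256 of 361 on the other 5. In replicate 2, 7 of the 13 on II lay in the centre and 5 in the right arm. In the series-wide list the median width was 290.5, 334 and 302 bp in the left arm, centre and right arm. Series-level peaks of 1 kb or more made up 5.56% of the left arm's peaks, the lowest share of the 12 arms, against 12.3% in the centre and 10.6% in the right arm. Score rose with width on II, with a Spearman correlation over its peaks of 0.82 (replicate 1), 0.75 (replicate 2) and 0.69 (series-wide list). The scores are those of the authors' peak caller, and no source used here names their scale.

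The widest sites of II lay in its centre. Peak lists do not show whether occupancy is continuous within such a peak. The widest series-wide peak was 7763 bp, from 10546594 to 10554356, and the fifth widest, 5777 bp from 10554672 to 10560448, followed it directly. Both fell inside a peak of replicate 1 of 23456 bp, from 10541285 to 10564740. Replicate 2 had a peak of 7905 bp from 10546689 to 10554593 at the first and 6103 bp from 10554665 to 10560767 at the second. The 7905 bp peak was not the only match, since 2 peaks of replicate 2 met the widest series-wide peak. The second widest, 7225 bp from 8124745 to 8131969, had similar borders in both replicates, with peaks of 9413 and 7664 bp. The third, 7120 bp from 5332413 to 5339532, sat inside a 17953 bp peak of replicate 1 and matched the widest peak of replicate 2 on II, 8024 bp from 5332279 to 5340302. The fourth, 6525 bp from 6831383 to 6837907, met no peak of replicate 2. It belonged to the widest peak of replicate 1 on II, 31166 bp from 6819898 to 6851063, whose score of 394.55 ranked only 369th of the 756. That peak took in 15 series-wide peaks, and its single partner in replicate 2 was 3442 bp wide.

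The 10 strongest sites found in both replicates lay in the centre and the right arm. Of all 409 series-wide peaks on II that overlapped both, 222 were in the centre, 125 in the right arm and 62 in the left. Among the 50 highest-scoring series-wide peaks of II, whatever their support, 28, 16 and 6 lay in these parts. Among the 10 highest-scoring series-wide peaks on II that overlapped both, 6 were in the centre, 4 in the right arm and none in the left. The first, at 9631671 to 9633174, had a series-wide score of 104.68 and scored 3100 in both replicates. A score of exactly 3100 recurred in 74 peaks of replicate 1 on II and in 1 of replicate 2, so the highest peaks of replicate 1 could not be ranked fully. The second site, at 4553856 to 4555584, scored 87.35, with 3100 in replicate 1 and 1741.7 in replicate 2. The third, at 13016244 to 13016806 in the right arm, scored 81.47 over only 563 bp. It ranked 103rd on II in replicate 1 and 97th in replicate 2.

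The remaining sites of this set varied in width and in their rank within the replicates. The wide peaks at 10546594 and 8124745 scored 70.59 and 60.55, and ranked 5th and 7th on II in replicate 2. The site at 6890017 to 6892765 scored 62.9, with 3100 in replicate 1, but its best partner in replicate 2 ranked 131st of 290. The sites at 10033346 to 10035333 and 12944400 to 12945444 both scored 58.05. Their partners ranked 139th and 127th in replicate 1 and 117th and 21st in replicate 2. The high rank of a site in the series-wide list thus did not always go with a high rank in a replicate.

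A stretch of the right arm between 13817416 and 13826288 held 2 of these sites and showed how the lists differed. Series-level peaks at 13822821 to 13824029, with a score of 57.18, and at 13824623 to 13826148, with 63.32, both fell inside a single peak of replicate 1 from 13822537 to 13826248. Replicate 2 had adjoining peaks at 13817416 to 13819075, 13819117 to 13824288 and 13824485 to 13826288. The series-wide peaks at 13817832 to 13818682 (31.8) and 13821286 to 13822119 (31.14) therefore overlapped replicate 2 alone. The peak of replicate 1 began to the right of both, at 13822537.

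Most peaks of replicate 2 on II had a partner in replicate 1. Of the 290, 254 shared 1 bp or more with a peak of replicate 1, or 87.6% (83.2 to 91.2%), against 88.8% over all nuclear chromosomes. In the other direction 226 of 756 peaks did, or 29.9% (26.6 to 33.3%), against 30.6%. Both shares were near the background. They fell to 54.1% and 20.8% with a 50% reciprocal overlap, against 52.4% and 20.5%, and to 40.7% and 15.6% for midpoints within 250 bp, against 39.7% and 15.5%. Peaks of replicate 1 with a partner had a median width of 2642 bp, against 1511 bp for those without, and width by itself helps a peak to meet the 1 bp rule. Among 199 pairs that overlapped one-to-one, the peak of replicate 1 was the wider in 172 and enclosed the peak of replicate 2 in 146, and midpoints lay a median of 181.5 bp apart. By length the replicates shared 509.1 kb of II, which was 26.9% of the length in replicate 1 and 84.2% of that in replicate 2.

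Agreement of the replicates differed along II. In the left arm 37 of 54 peaks of replicate 2 had a partner, or 68.5% (54.4 to 80.5%), against 137 of 144 in the centre, or 95.1% (90.2 to 98.0%), and 80 of 92 in the right arm, or 87.0% (78.3 to 93.1%). The intervals of left arm and centre do not overlap, while those of left and right arm do. On the other 5 chromosomes the shares were 87.0%, 92.9% and 82.2%. Among their 10 arms the share ranged from 58.2% in the right arm of V to 95.5% in the right arm of III, so the left arm of II was the second lowest of 12. For replicate 1 the centre was the lowest, with a partner for 37.8% of peaks in the left arm, 24.3% in the centre and 39.9% in the right arm. The other 5 chromosomes had the same order, with 32.6%, 28.8% and 34.8%. The shares of replicate 2 on II moved with the density of replicate 1, which had 25.7 peaks per Mb in the left arm, 61.5 in the centre and 49.2 in the right arm. Those of replicate 1 did not move with the density of replicate 2, which was 14.1, 18.8 and 24.1 peaks per Mb in the same order. The part of density in these shares was not tested.

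The series-wide peaks of II were supported by the replicates about as often as those elsewhere. Of the 1630, 409 overlapped a peak of both replicates, or 25.1% (23.0 to 27.3%), against 26.0% over all nuclear chromosomes. Replicate 1 alone was met by 885, or 54.3% (51.8 to 56.7%), against 52.9%. Replicate 2 alone was met by 70, or 4.29% (3.36 to 5.39%), against 3.15%. Neither was met by 266, or 16.3% (14.6 to 18.2%), against 18.0%. The share met by replicate 2 alone lay outside the interval of the other 5 chromosomes together, 2.60 to 3.31%, but V had a higher one, 4.59%. With a 50% reciprocal overlap the shares on II were 3.01%, 1.04%, 7.73% and 88.2%, against 3.11%, 0.923%, 8.45% and 87.5%. A series-wide peak of median width cannot fill 50% of a replicate peak of median width, which limits matches by this rule. The series-wide list may rest on the same reads as the replicate lists, and support by them is a description.

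Within II, series-wide peaks met by neither replicate were a larger share in the arms than in the centre, as on the other 5 chromosomes together, and the left arm had the largest. In the left arm 97 of 306 series-wide peaks met neither replicate, or 31.7% (26.5 to 37.2%), and 38 met replicate 2 alone, or 12.4% (8.94 to 16.6%). In the centre neither was met by 90 of 899, or 10.0% (8.13 to 12.2%), and replicate 2 alone by 12, or 1.33% (0.692 to 2.32%). The right arm lay between, with 18.6% (15.0 to 22.6%) and 4.71% (2.90 to 7.17%). The intervals of the 3 parts do not overlap for neither replicate. On the other 5 chromosomes neither was met by 22.9% in the left arms, 14.3% in the centres and 24.6% in the right arms, and replicate 2 alone by 3.60%, 1.83% and 5.29%. The left arm of II thus lay above the others' left arms together in both shares, and its right arm below their right arms together. Taken singly, the right arm of X was lower for neither replicate, at 15.6%. For replicate 2 alone the right arms of III (4.43%), IV (3.41%) and X (1.07%) were lower than that of II. The left arm of II had the lowest share of peaks met by both replicates among the 12 arms, 20.3%, and its right arm the highest, 29.4%. Their intervals, 15.9 to 25.2% and 25.1 to 34.0%, overlap slightly. Only the right arm of V had larger shares than the left arm of II for neither replicate, 33.7%, and for replicate 2 alone, 15.2%. Width and score moved with support. A setting added once results were known kept only series-wide peaks of at least the median width on II. There neither replicate was met by 11.3% in the left arm, 3.77% in the centre and 4.85% in the right arm. The part of width and score in the shares of the 3 parts was not tested.

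**Figure D3:**
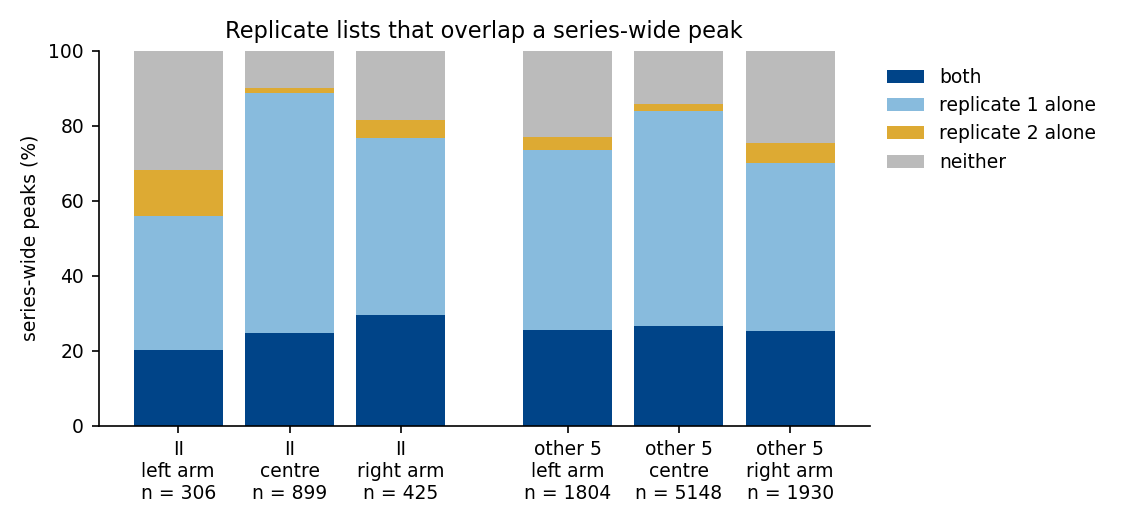
Share of series-wide peaks (y axis, percent) met (1 bp or more) by both replicate lists, by only that of replicate 1, by only that of replicate 2, or by neither, in the left arm, centre and right arm of chromosome II and of the other 5 nuclear chromosomes. The left arm of II has 31.7% met by neither replicate, against 10.0% in its centre.

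Support rose with the series-wide score. With the series-wide peaks of II in 5 equal groups by score, the share met by both replicates was 9.51% (6.55 to 13.2%) in the lowest group, with scores from 1.36 to 3.77. It was 64.1% (58.6 to 69.3%) in the highest, with scores from 13.17 to 104.68. The share met by neither fell from 28.2% to 1.23%, which was 4 peaks of 326. Replicate 2 alone stayed between 2.76% and 5.21% in all 5 groups. The median score and width were 13.84 and 705 bp for peaks met by both and 4.385 and 211 bp for those met by neither. Those met by replicate 2 alone had 7.34 and 443.5 bp, and those met by replicate 1 alone 5.76 and 295 bp.

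**Figure D4:**
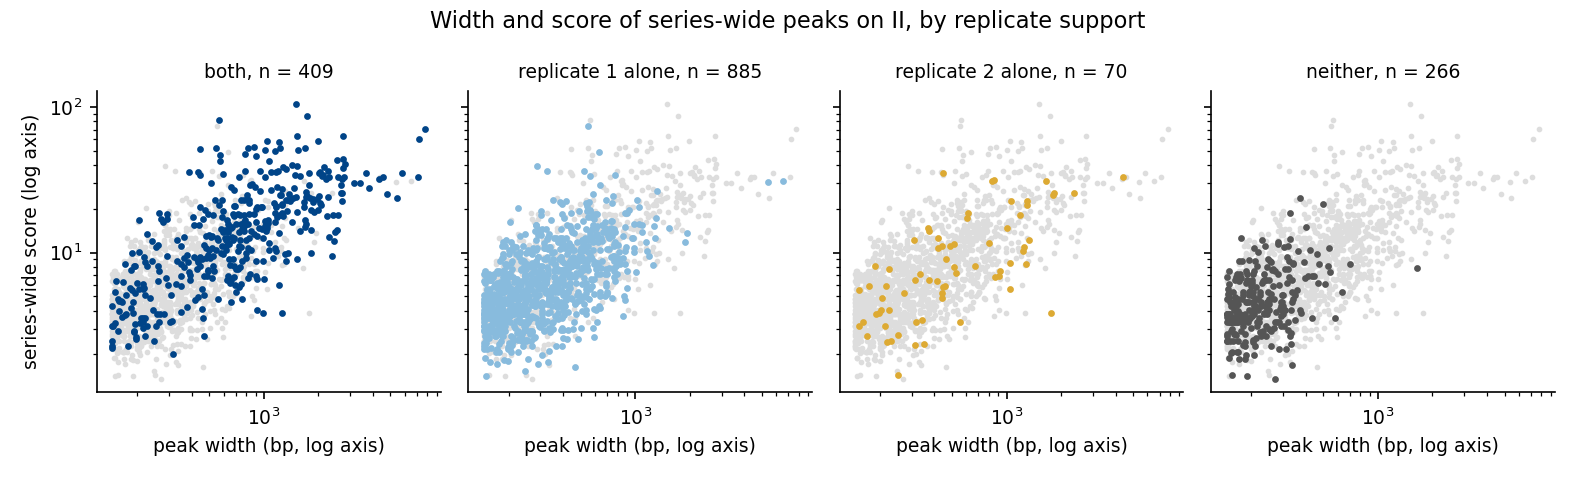
Series-level score (y axis, log) against width in bp (x axis, log) of the 1630 series-wide peaks on II, with the peaks of each support class coloured over all others in grey. Peaks met by both replicates reach the upper right, and the 266 met by neither gather at low width and score, with medians of 211 bp and 4.385.

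Some strong sites of II were missing from a replicate. The fourth highest series-wide peak, at 4047630 to 4048181 with a score of 74.35, met a peak of replicate 1 with a score of 2073.87 and none of replicate 2; it was chosen after its values were seen. Of the 100 highest-scoring series-wide peaks on II, 82 met both replicates and 0 met neither, while 11 met replicate 1 alone and 7 replicate 2 alone. The highest that met replicate 2 alone was the first peak of the chromosome, at 1 to 445, with a score of 35.09. The next, at 8288321 to 8292702 in the centre, scored 33.21 and was 4382 bp wide. Its partner in replicate 2, from 8287136 to 8293177, had a score of 2537.26, the 3rd highest of that list on II, and replicate 1 had no peak there. The fifth of this class, at 14337510 to 14339169, scored 31.01 and matched a peak of 2511 bp in replicate 2.

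Peaks that met neither replicate reached lower scores. The highest of them on II was at 14762513 to 14762883, with a score of 23.87, which ranked 113th among all series-wide peaks of the chromosome. The next were at 10335911 to 10336405 (21.46), 1425466 to 1425792 (18.8), 8229220 to 8229618 (15) and 2187676 to 2187851 (12.63). None of these 5 was wider than 495 bp. In the opposite sense, 107 peaks of replicate 1 on II met no series-wide peak. The list overlapped 649 of 756 peaks of replicate 1, or 85.8% (83.2 to 88.3%), against 88.6% over all nuclear chromosomes. It overlapped 286 of 290 peaks of replicate 2, or 98.6% (96.5 to 99.6%), against 99.3%. In replicate 1 this share was 96.9% in the left arm, 82.3% in the centre and 88.8% in the right arm, against 92.7%, 86.7% and 92.6% on the other 5 chromosomes, where the centre was the lowest too.

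The ends of II differed in the number of sites. The outer 100 kb at the left end held 10 series-wide peaks, 5 of replicate 1 and 2 of replicate 2, and the outer 100 kb at the right end held 33, 13 and 7. At the left end replicate 2 began with a peak at 2 to 1098, while the first peak of replicate 1 was at 18348 to 20022. At the right end the last series-wide peak, at 15279019 to 15279346 with a score of 12.44, met neither replicate. The last peaks of the replicates were at 15270567 to 15272366 in replicate 1 and 15265566 to 15267199 in replicate 2.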

How the data were processed

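The submitters' processing notes name BWA, without a version, and ce10; per the file headers, coordinates are in WormBase WS220. Each ChIP library has its own peak list, whose source field names MACS, and the series-wide list names MACS v2. Thresholds, the use of the input and the way libraries were combined stay unnamed in the sources used here. The score of each peak was used as deposited by the authors. The 3 lists were not rescaled, and scores were compared only within a list. Depth is unknown. The input libraries were not analysed here.

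Peaks were assigned to arms, deciles and windows by midpoint. The length of a chromosome was the highest peak end over the 3 lists. Overlap means 1 shared bp or more. Covered length counts bases under peaks; for arms it is the summed width of the peaks assigned to them. Regions named by rule were the 10 highest-scoring series-wide peaks on II found in both replicates, the 5 widest and the widest of each replicate. The rule also took the 3 windows with most and fewest series-wide peaks, the 3 longest series-wide gaps, and the first and last peaks. It ended with the 5 highest-scoring peaks found in neither replicate or in replicate 2 alone. Other regions fell outside the rule, and only some are marked where named. Windows of 1 Mb given for their replicate counts and the gaps of each replicate are not marked. The members, groupings and alternatives were chosen with earlier results of these data known. No sequence is shown and no gene is named, since the gene table used here is on another build, WBcel235. Overlap and share calculations were checked on simulated lists. Python 3.11.15, numpy 2.4.6, pandas 2.3.3, scipy 1.17.1 and matplotlib 3.10.9 were used. The labels do not say whether the ChIP libraries came from separate cultures, so the spread between them may be technical.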

Additional observations from a re-analysis of the deposited data

How the results depend on the processing

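Of 70 alternatives to 25 values, 29 stayed within the interval or spread of the value reported and 41 moved outside it. Each value was judged alone and only as having stayed or moved. No reversal could therefore be counted, nor a changed order between values. Of the 70, 7 were added once results were known. The right-arm share of the arm peaks ran from 61.7 to 71.1% over the alternatives in both replicates, and left its interval by covered length in the series-wide list (63.7%). Arms defined as the outer 33.3% per side changed the arm share to 52.2% (replicate 1), 64.8% (replicate 2) and 57.6% (series-wide), each below the share of the length so defined. By covered length it was 32.5% in replicate 1 and 39.9% in the series-wide list. Taking only the upper 50% by score, thus fewer peaks by construction, gave 25, 9.10 and 52.0 peaks per Mb in the same order, with median widths of 2708, 2350 and 549.5 bp. Merging peaks closer than 200 bp gave 85.5 peaks per Mb and a median of 393 bp in the series-wide list. Support in that upper 50% was 20.0% by both, 49.5% by replicate 1 alone and 25.8% by neither, and with a 50% reciprocal overlap 3.01%, 1.04%, 7.73% (replicate 2 alone) and 88.2%. The share met by neither replicate in the left arm, centre and right arm was 43.4%, 17.1% and 31.5% in the upper 50% of each list, and 92.8%, 87.99% and 85.4% with a 50% reciprocal overlap, where the centre was no longer the lowest. It was 15.2%, 3.70% and 9.72% when only the series-wide list was so restricted, and 11.3%, 3.77% and 4.85% for series-wide peaks of at least the median width, both added alternatives. Replicate partners moved to 20.8%, 15.6% and 56.2% of replicate 1 and to 54.1%, 40.7% and 65.9% of replicate 2 with a 50% reciprocal overlap, midpoints within 250 bp and equal numbers of top-scoring peaks. Of the 10 named sites, 3 kept both partners with a 50% reciprocal overlap and 3 with midpoints within 250 bp. Where no construction is named, the cause was not tested. Leaving out a replicate returns the other: 19.0 to 49.5 peaks per Mb, an arm share of 37.8 to 50.3% and a right-arm share of 63.0 to 65.7%. Each of 2 values always lies within the SD of their mean, so these alternatives are among those that stayed by construction. No paired analysis was possible because the input libraries, which share the replicate numbers, were not analysed here.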
